A study of Mus musculus with 13 samples.

Results

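The genes described here are 109 of the 20325 in the files that were still well above the level of embryonic stem cells (ESCs) in wild-type (WT) mouse pre-iPSCs at day 10 of a treatment that moves such cells toward pluripotency. Pre-iPSCs derive from mouse embryonic fibroblasts (MEFs) that entered reprogramming and stalled before becoming induced pluripotent stem cells. The genes were chosen by measured values alone, in CPM (a gene's expected count over the total of its library, scaled to a common size). A member had at least 10 CPM in each of the 4 day 0 libraries and in both WT day 10 libraries, and its lower WT day 10 value was at least 5 times the ESC value after 1 CPM was added to each. Genes with symbols starting with Hox, Fox or Col were left out, which removed 3 genes that met the values. Members made up 1.32% of the 8265 genes at 10 CPM or more in those 6 libraries.

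Cells with a knockout (KO) of Kdm3b and WT cells were each sampled at day 0, day 2 and day 10, with 2 libraries per group, lettered A and B, and 1 library came from V6.5 ESCs of WT genotype. From day 0 the cells received AA+2i, which is ascorbic acid at 50 µg/mL with the GSK3 inhibitor CHIR-99021 and the MEK inhibitor PD-0325901. All cells were kept in serum medium (15% fetal bovine serum) with leukemia inhibitory factor, and the treated cultures were passaged at day 4. The titles of the day 0 libraries name DMSO although their treatment label is AA+2i, and they are read here as the untreated start. The ESC library carries the same treatment label, so its medium is uncertain. The labels do not say how the KO was made, whether each genotype is 1 clone, or whether letters A and B are separate cultures. The p-values therefore measure the spread between these libraries, which may be technical. In bulk RNA, fewer cells of a type and less RNA per cell cannot be told apart.

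Reprogramming has to shut down the programme of the starting cell as well as open that of the pluripotent cell. Kdm3b encodes an enzyme that removes methyl groups from a histone lysine that marks silent chromatin, and ascorbic acid is a cofactor of that enzyme family. Blocking GSK3 and MEK holds mouse ESCs in the naive state.

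The libraries held 14891294 to 26430050 expected counts. Kdm3b had 40.9 and 65.5 CPM in KO and 173 and 261 CPM in WT at day 0, 17.7 and 30.2 CPM in KO and 146 and 182 CPM in WT at day 2, and 19.8 and 41.5 CPM in KO and 202 and 199.9 CPM in WT at day 10, so the targeted gene was lower in all KO libraries. Of the ESC markers, Nanog had 32.8 and 31 CPM in KO and 298 and 331 CPM in WT at day 10, against 291 CPM in ESCs. Of the 9 ESC markers, 7 were lower in both KO libraries than in both WT libraries at day 10 and 2 higher, Pou5f1 at 2510 and 3185 CPM in KO and 1265 and 1387 CPM in WT, and Klf4 at 622 and 824 CPM in KO and 356 and 318 CPM in WT. The 5 epithelial markers summed to 205 to 269 CPM in KO and 1205 to 1255 CPM in WT at day 10, against 1524 CPM in ESCs. The 11 fibroblast markers summed to 1068 to 1095 CPM in KO and 299 to 311 CPM in WT at day 10, most of it Vim, with 1079 and 1052 CPM in KO and 274 and 282 CPM in WT. Vim was the only 1 of the 11 higher in both KO libraries than in both WT libraries, and 6 were lower, among them Thy1 at 1.06 and 1.27 CPM in KO and 9.26 and 4.85 CPM in WT. The 7 neural markers summed to 316 and 327 CPM in KO and 132 and 115 CPM in WT at day 10. Of these 7, 3 were higher in both KO libraries than in both WT libraries and 1 was lower. Of the fibroblast markers, Dcn and Lum were at most 0.0757 and 0 CPM at day 0, before treatment. Apart from Vim and S100a4, all fibroblast markers were at most 4.10 CPM at day 0, a value of Prrx1 in WT B. Vim had 841 and 699 CPM in KO and 957 and 926 CPM in WT at day 0. S100a4 had 64.4 and 36.0 CPM in KO and 98.9 and 61.4 CPM in WT at day 0. At days 0 and 2 the lettered libraries differed in the same manner in all 4 groups: long genes (the upper tertile) were 0.34 to 0.50 higher in B than in A as a median log2 ratio, and the log2 ratio of short genes (the lower tertile) was -0.24 to -0.44. For the members, whose median length of 3617 bases compares with 2894 for genes at 10 CPM or more on average, the median log2 ratio of B over A was 0.50 to 0.77 at days 0 and 2, 0.08 in KO at day 10 and -0.20 in WT at day 10. Contrasts between day 10 and an earlier day carry that difference.

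Most of the 109 genes were already above ESCs before treatment and kept part of that excess, while others came up during treatment, so persistence describes only some of the set. At the start, 82 members were at least 5 times the ESC value in every day 0 library and 27 were not. The 82 were 33.5% of the 245 genes that passed 10 CPM and the 5-fold threshold in all day 0 libraries. The other 163 were under 10 CPM or under 5 times ESCs in a WT day 10 library and are called the reset genes below. A reset gene may thus still have been 5 times ESCs at a level under 10 CPM. The name stands for a missed limit and not for a return to the ESC level. The median reset gene was still 1.53 log2 units above ESCs in WT at day 10. Among the 27, both WT day 10 libraries lay above both WT day 0 libraries for 17 genes, and among the 82 for 3. Kit, Aff1, Ak4, Zc3hav1 and Aqp3 are examples of genes that came up during treatment. The receptor tyrosine kinase Kit had 11 and 28.9 CPM in WT at day 0, 58.4 and 142 CPM at day 2 and 237 and 237 CPM at day 10, with 41.5 CPM in ESCs.

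Since the rule read WT at days 0 and 10, the WT course is given as a description and nothing is read from its calls. At WT day 10 against WT day 0, 13 members were called higher and 48 lower by edgeR (false discovery rate, FDR, under 0.05), where 21.0% and 13.1% of the 14324 genes tested were called. Omitting WT day 0 B left 37 of the 61 calls in number, and omitting WT day 10 B left 31. A persisting gene was thus often lower than at the start: 79 members were below their WT day 0 mean, and 46 were more than 1 log2 unit below it, on log2(CPM + 1). In KO, 17 members were more than 1 log2 unit below their day 0 mean. The median member lay 4.27 log2 units above ESCs in KO at day 10 and 3.24 in WT at day 10, against 4.06 in KO and 4.04 in WT at day 0. The reset genes had medians of 2.99 in KO and 1.53 in WT at day 10.

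**Figure D1:**
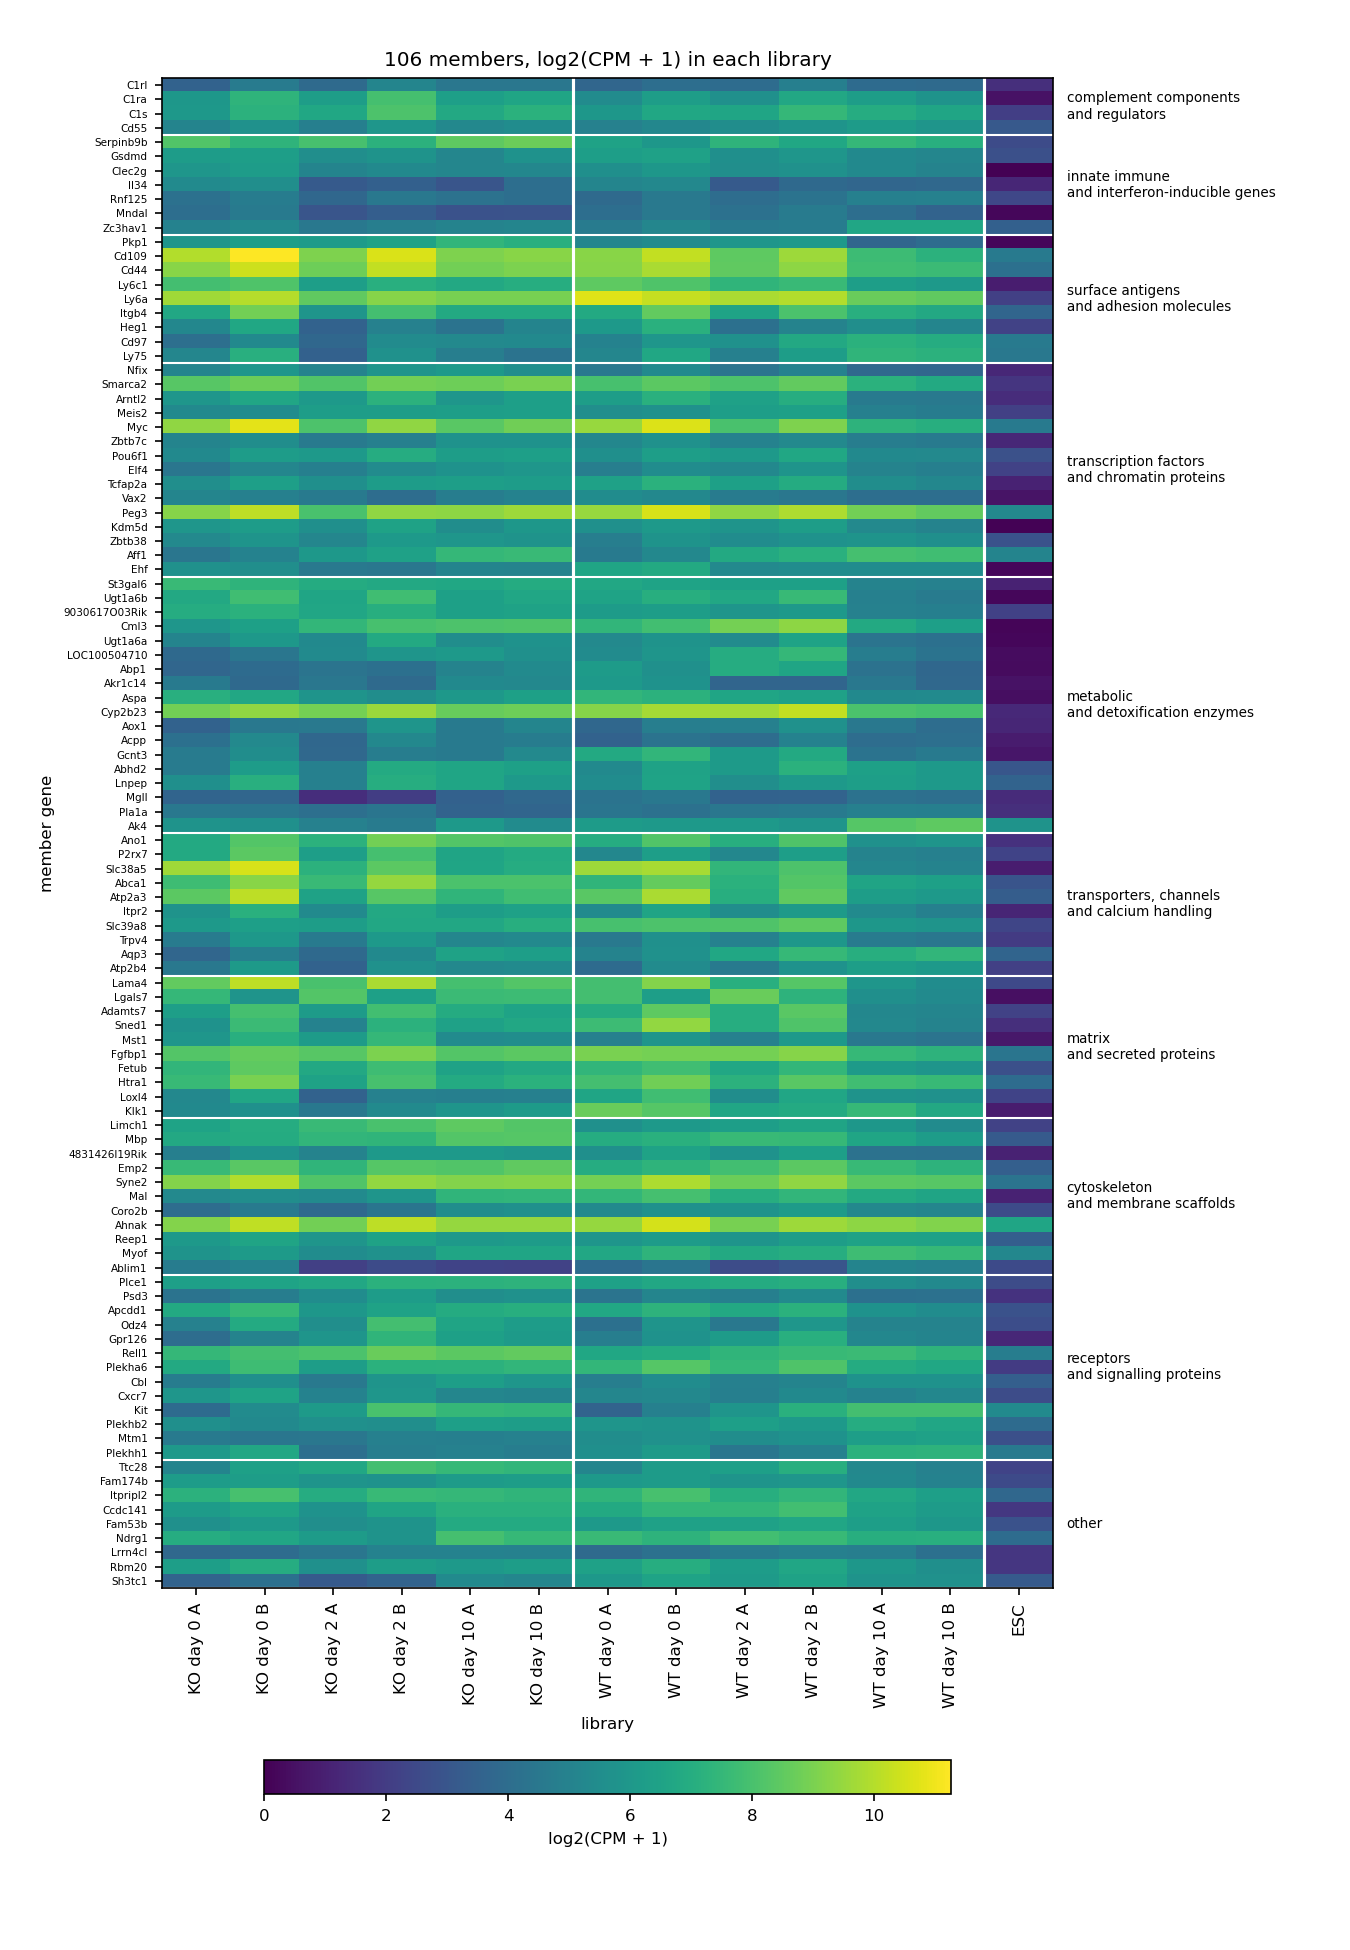
Level of 106 of the 109 members (rows, grouped by function and sorted by KO over WT at day 10) in each of the 13 libraries (columns, KO then WT then ESC), as log2(CPM + 1) on the colour scale. The ESC column is dark for most rows; of all 109, 22 members were under 1 CPM there, and 17 members in KO and 46 in WT were more than 1 log2 unit below their day 0 mean at day 10.

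Cyp2b23, a cytochrome P450 of the family that oxidises drugs and steroids, was the member highest over ESCs. It had 399 and 434 CPM in KO and 272 and 243 CPM in WT at day 10, against 1.44 CPM in ESCs. At day 0 it had 463 and 672 CPM in KO and 600.2 and 858 CPM in WT. The groups did not overlap at day 10, with both KO libraries above both WT libraries, but the difference was not called (log2 fold change 0.74, SE 0.29, FDR = 0.0802). The other 4 Cyp2b genes in the files reached at most 0.211 CPM in any library.

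Ly6a, the surface antigen also called Sca-1, was next. Its day 10 levels were 498 and 491 CPM in KO and 409 and 361 CPM in WT, with 3.39 CPM in ESCs. In TPM, a scale per transcript length, Ly6a was the highest member in WT at day 10, at 1006 and 873 TPM, and Klk1, Fgfbp1 and Cyp2b23 followed. By CPM, which favours long transcripts, the highest members were Ahnak, Peg3, Ly6a, Ak4 and Syne2. Ahnak, which encodes a giant scaffold protein, had 705 and 723 CPM in KO and 652 and 567 CPM in WT at day 10, and with 98 CPM it was also the highest member in ESCs. At the other end, 22 members were under 1 CPM in ESCs, and Clec2g had 0 counts there, which allows up to 0.149 CPM from counting error.

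The threshold itself separates near neighbours. Cbl, Myof and C1rl lay just inside, at 5.01, 5.08 and 5.17 times ESCs in the lower WT day 10 library, and Ryr2, Pramef8 and Fam126a just outside, at 4.97, 4.95 and 4.91.

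At day 10, KO held more of these transcripts than WT. Of the 109 members, 40 were higher in KO and 11 lower (36.7% and 10.1%), where 12.4% of all genes tested were higher and 19.9% lower. The median log2 fold change was 0.76 over the members and -0.02 over all genes. The rule read only the WT side of this contrast and asked for high values there. Both KO libraries lay above both WT libraries for 74 members (36.9% of all genes) and below for 25 (44.7% of all genes). The number of called members, 51, became 31, 25, 29 and 24 when KO A, KO B, WT A and WT B of day 10 were omitted in turn, where the lone library left in a group is assumed to vary like the other groups. Vim and the ESC, epithelial and neural markers differed in the same contrast by the amounts given above, and their part in the result was not tested.

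The direction differed by the level at the start. Of the 82 members at least 5 times ESCs at day 0, 38 were higher in KO at day 10 and 3 lower, with a median log2 fold change of 1.02. Of the 27 others, 2 were higher and 8 lower, with a median of -0.48. The 3 exceptions among the 82 were Klk1, Mndal and Pla1a, and the 2 among the 27 were Elf4 and Rell1. These groups were split on day 0, WT day 10 and ESC values, so the counts are descriptive. Applied to KO at day 10, the same limits of 10 CPM and 5 times ESCs were met by 92 of the 109 members (84.4%) and by 107 of the 163 reset genes (65.6%). The reset genes were chosen for a low WT day 10 level, and 125 of them were higher and 2 lower in KO there.

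**Figure D2:**
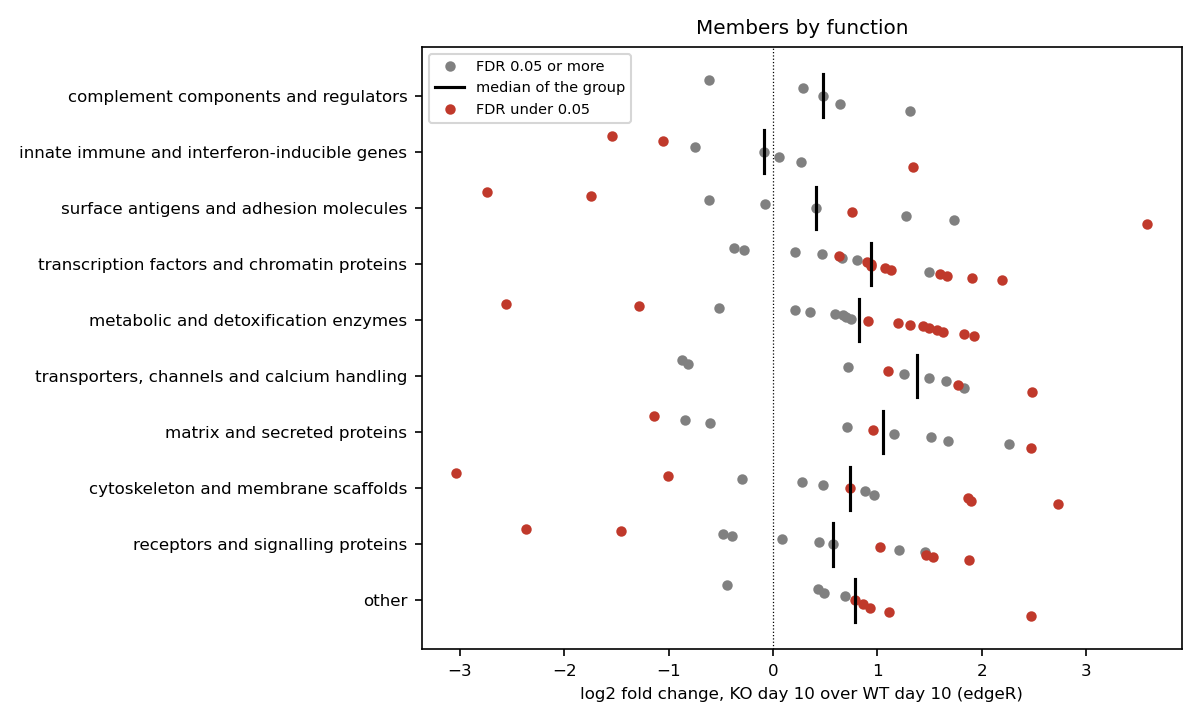
Log2 fold change of KO over WT at day 10 from edgeR (horizontal axis) for each member, 1 row per functional class, with called members in red and a black bar at the class median. All class medians but that of the innate immune genes lie to the right of 0, and the 3 lowest values belong to Ablim1, Ly75 and Ak4.

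The classes below were assigned by hand after the values were seen, and apart from genes picked by a fixed ranking their examples were chosen the same way, so class counts are descriptive. The largest class by number was metabolic and detoxification enzymes, with 18 members, of which 9 were higher in KO at day 10 and 2 lower (median log2 fold change 0.83). It held oxidising, reducing and conjugating enzymes: Cyp2b23, the aldehyde oxidase Aox1, the aldo-keto reductase Akr1c14, the diamine oxidase Abp1 (now Aoc1), and the glucuronosyltransferases Ugt1a6a and Ugt1a6b. Cml3 and LOC100504710 (now Nat8f3 and Nat8f6), relatives of the N-acetyltransferase Nat8, were members too. The aspartoacylase Aspa, of none of these kinds, was in the class as well. Ugt1a6a and Ugt1a6b share exons, so the split of reads between them is uncertain. Abp1 had 32.2 and 41.2 CPM in KO and 18.1 and 12.5 CPM in WT at day 10 (log2 fold change 1.31, SE 0.29, FDR = 0.00915), a reversal of day 2, when it had 19 and 16.7 CPM in KO and 124 and 97.7 CPM in WT (log2 fold change -2.57, SE 0.30, FDR = 0.00125). At each of these days the genotypes did not overlap.

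Cml3 and LOC100504710 lie next to each other among the protein-coding genes of chromosome 6 and moved together. Their promoter windows (250 bases before to 50 after the start, RefSeq, GRCm38.p6, minus strand) are shown because the pair shared its course in all groups; they lie at chr6:85765695-85765994 and chr6:85809828-85810127, 5′ to 3′, with CpG dinucleotides in capitals.
Cml3: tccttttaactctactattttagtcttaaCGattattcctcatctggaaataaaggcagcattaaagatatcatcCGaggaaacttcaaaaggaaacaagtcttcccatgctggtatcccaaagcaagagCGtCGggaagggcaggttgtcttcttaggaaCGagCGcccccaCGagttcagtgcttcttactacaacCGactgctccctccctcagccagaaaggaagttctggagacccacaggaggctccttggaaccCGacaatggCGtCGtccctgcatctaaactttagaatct
LOC100504710: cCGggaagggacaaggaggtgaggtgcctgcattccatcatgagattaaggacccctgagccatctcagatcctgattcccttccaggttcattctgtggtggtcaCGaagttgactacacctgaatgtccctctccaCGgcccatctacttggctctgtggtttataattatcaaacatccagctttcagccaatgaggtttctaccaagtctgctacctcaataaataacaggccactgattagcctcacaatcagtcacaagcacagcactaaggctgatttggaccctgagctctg
The windows hold 11 and 3 CpG dinucleotides, and 127 of 316 aligned positions are identical, so the windows are mostly unlike. Cml3 had 59.1 and 83.7 CPM at day 0, 176 and 250.2 CPM at day 2 and 281 and 282 CPM at day 10 in KO, and 170.3 and 234 CPM, 488 and 645 CPM and 114 and 82.3 CPM at the same days in WT, with 0.104 CPM in ESCs. KO was thus below WT at days 0 and 2 and above it at day 10, with no overlap between the genotypes on any day. The log2 fold change of KO over WT was -1.45 at day 0 (FDR = 0.00828), -1.34 at day 2 (FDR = 0.00963) and 1.57 at day 10 (FDR = 0.00182). LOC100504710 followed at -1.49, -1.54 and 1.44, all called. The relatives share sequence, so reads may be split between copies, which leaves their separate levels uncertain.

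Other enzymes went both ways. The D-glutamate cyclase gene 9030617O03Rik (now Dglucy) had 84.8 and 88.1 CPM in KO and 30.1 and 27.7 CPM in WT at day 10 (log2 fold change 1.63, SE 0.15, FDR = 0.000163) and was also higher in KO at days 0 and 2. St3gal6, which adds sialic acid to glycans, had 104 and 121 CPM in KO and 31.5 and 29.8 CPM in WT (log2 fold change 1.93, SE 0.21, FDR = 0.000320). The mitochondrial adenylate kinase gene Ak4 was the counterexample: 66.8 and 42.9 CPM in KO and 313 and 356 CPM in WT at day 10 (log2 fold change -2.56, SE 0.27, FDR = 0.000287), against 53.7 and 49.2 CPM in KO and 71.3 and 65.6 CPM in WT at day 0. KO stayed near its starting level and WT went well past it. Pla1a, a phospholipase of phosphatidylserine, was lower in KO as well (log2 fold change -1.29, SE 0.18, FDR = 0.00102). The remaining enzyme members, Acpp, Abhd2, Mgll, Gcnt3, Aox1, Lnpep and Cyp2b23, were not called at day 10, with log2 fold changes between -0.52 and 0.74.

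Transcription factors and chromatin proteins were the second class, with 17 members. At day 10, 10 were higher in KO and 0 lower by edgeR (12 higher and 1 lower at unadjusted p under 0.05, and 11 higher and 1 lower by DESeq2), with a median log2 fold change of 0.94. Smarca2, which encodes the ATPase BRM of the SWI/SNF remodelling complex, had 439 and 508 CPM in KO and 148 and 113 CPM in WT (log2 fold change 1.91, SE 0.27, FDR = 0.00100). At day 0 it had 326 and 419.6 CPM in KO and 253 and 341 CPM in WT, and in ESCs 2.29 CPM. Its paralogue Smarca4, no member, had 334 and 306 CPM in KO and 309.8 and 276 CPM in WT at day 10 and 281 CPM in ESCs. Smarca2 in WT at day 10 was thus below its day 0 level and above the ESC level.

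Homeobox and neural factors were part of this class. The neural markers Sox1 (140 and 161 CPM in KO and 13.8 and 10.8 CPM in WT) and Nes (150 and 140 CPM in KO and 68.8 and 52.0 CPM in WT) were higher in KO at day 10 as well. Tubb3 went the other way, with 3.49 and 2.06 CPM in KO and 21.0 and 30.2 CPM in WT. The part of the neural markers in the values of this class was not tested. Meis2, a TALE homeobox factor, had 79.6 and 80.5 CPM in KO and 29.2 and 25.3 CPM in WT at day 10 (log2 fold change 1.60, SE 0.14, FDR = 0.000126). The homeobox genes Vax2 (log2 fold change 0.90, SE 0.27, FDR = 0.0333) and Pou6f1 (log2 fold change 1.07, SE 0.35, FDR = 0.0429) were also higher in KO. Nfix, of the nuclear factor I family, had 65.3 and 45.8 CPM in KO and 12.8 and 12.2 CPM in WT (log2 fold change 2.20, SE 0.38, FDR = 0.00284). The epithelial and ectodermal AP-2 factor Tcfap2a (now Tfap2a), the clock factor Arntl2, the ETS factor Elf4 and the zinc finger gene Zbtb7c were also among the called genes, at log2 fold changes of 0.94, 1.66, 0.94 and 1.13.

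The other 7 of this class were not called. Myc, a growth factor-responsive regulator that is also used as a reprogramming factor, had 331 and 452 CPM in KO and 156 and 131 CPM in WT at day 10 (log2 fold change 1.49, SE 0.58, FDR = 0.0838), against 678 and 1805 CPM in KO and 727 and 1608 CPM in WT at day 0 and 23.9 CPM in ESCs. Gene totals do not separate the endogenous gene from an introduced copy, and Pou5f1, another factor used for reprogramming, had 3797 and 8347 CPM in KO and 3925 and 7662 CPM in WT at day 0, above the 1470.5 CPM of ESCs; the part of introduced copies was not tested. Peg3, an imprinted zinc finger gene expressed from the paternal copy, had 659 and 772 CPM in KO and 467 and 378 CPM in WT (log2 fold change 0.81, SE 0.47, FDR = 0.240). Ehf, an epithelial ETS factor, had 32.9 and 32.1 CPM in KO and 43.2 and 43.8 CPM in WT (log2 fold change -0.37, SE 0.15, FDR = 0.0872). Zbtb38 and Aff1 had log2 fold changes of 0.21 and -0.28.

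Kdm5d, a histone demethylase gene on the Y chromosome, had 45.6 and 61.5 CPM in KO and 38 and 32.3 CPM in WT at day 10 (log2 fold change 0.66, SE 0.27, FDR = 0.0980) and 0.0498 CPM in ESCs, which is 1 count. The Y-linked genes Ddx3y, Uty and Eif2s3y had 15.6, 12.3 and 35.1 CPM in the same ESC library. Each was lower there than in every pre-iPSC library, where their lowest values were 52.3, 21.7 and 51.8 CPM. The part of a lower level of Y-linked genes in the Kdm5d value of ESCs was not tested. As for every member, the comparison with ESCs rests on that single library.

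Transporters, channels and calcium-handling proteins numbered 10, with 3 higher and 0 lower in KO at day 10 by edgeR (6 higher and 0 lower at unadjusted p under 0.05, and 5 higher and 0 lower by DESeq2) and a median log2 fold change of 1.38. The zinc and manganese importer Slc39a8 had 108 and 134 CPM in KO and 61.6 and 55.4 CPM in WT (log2 fold change 1.10, SE 0.19, FDR = 0.00255). The amino acid transporter Slc38a5 had 804 and 1528 CPM at day 0, 149 and 348 CPM at day 2 and 96.7 and 124 CPM at day 10 in KO, and 782 and 891 CPM, 168 and 274 CPM and 35.1 and 31.8 CPM in WT, a large loss in both genotypes. It was higher in KO at day 10 (log2 fold change 1.77, SE 0.42, FDR = 0.0112). The chloride channel Ano1 had 303 and 284 CPM in KO and 51.6 and 57.3 CPM in WT (log2 fold change 2.48, SE 0.64, FDR = 0.0164).

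The others of this class, the cholesterol exporter Abca1, the ATP-gated channel P2rx7, the calcium channel Trpv4, the calcium release receptor Itpr2, the calcium pumps Atp2a3 and Atp2b4, and the water channel Aqp3, were not called, with log2 fold changes from -0.87 to 1.83. Aqp3 had 89.6 and 78.5 CPM in KO and 134 and 171 CPM in WT at day 10, and 12.1 and 28.2 CPM in KO and 31.5 and 51.7 CPM in WT at day 0.

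Matrix and secreted proteins numbered 10, with 2 higher and 1 lower in KO. The laminin chain gene Lama4 had 245 and 308 CPM in KO and 59 and 44 CPM in WT at day 10 (log2 fold change 2.47, SE 0.71, FDR = 0.0272). Fgfbp1, a carrier of fibroblast growth factors, was the other higher gene (log2 fold change 0.95, SE 0.25, FDR = 0.0189). The tissue kallikrein gene Klk1, whose product releases kinins, had 58.4 and 71.7 CPM in KO and 188 and 109 CPM in WT (log2 fold change -1.14, SE 0.33, FDR = 0.0279). It was low in KO from the start, with 39.5 and 49.2 CPM in KO and 409.6 and 314 CPM in WT at day 0. The proteases Htra1, Adamts7 and the growth factor relative Mst1, with Sned1, Loxl4, Fetub and Lgals7, were not called, from -0.85 to 2.26. Collagen genes were left out by the rule.

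Surface antigens and adhesion molecules numbered 9, with 2 higher and 2 lower. The largest difference of the 109 belonged to Pkp1, plakophilin of the desmosome, a junction of stratified epithelia. It had 169 and 139 CPM in KO and 11.7 and 14.8 CPM in WT at day 10 (log2 fold change 3.59, SE 0.21, FDR = 5.34e-05), with 58.5 and 78.6 CPM in KO and 34.6 and 42.8 CPM in WT at day 0 and 0.149 CPM in ESCs. Both KO libraries were above both WT libraries at all 3 days. Ly6c1, the neighbour of Ly6a on chromosome 15, was higher in KO at day 10 (log2 fold change 0.76, SE 0.25, FDR = 0.0465), while Ly6a itself was not called (log2 fold change 0.41, SE 0.29, FDR = 0.335). The endocytic receptor Ly75 had 27.2 and 18.3 CPM in KO and 163 and 151 CPM in WT (log2 fold change -2.74, SE 0.87, FDR = 0.0398), and the adhesion receptor Cd97 (now Adgre5) was at -1.74 (FDR = 0.0494). Cd44, the hyaluronan receptor, had 464 and 531 CPM in KO and 223 and 201 CPM in WT (log2 fold change 1.28, SE 0.50, FDR = 0.0838). Cd109, Itgb4 and Heg1 were not called either.

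Cytoskeletal proteins and membrane scaffolds numbered 11, with 4 higher and 2 lower. Limch1, an activator of non-muscle myosin, had 359 and 306 CPM in KO and 62 and 41.7 CPM in WT at day 10 (log2 fold change 2.73, SE 0.25, FDR = 0.000151). Mbp, the myelin basic protein gene, had 304 and 312 CPM in KO and 97.6 and 73.7 CPM in WT (log2 fold change 1.89, SE 0.18, FDR = 0.000182). The raft protein gene Mal had 38.2 and 45.1 CPM at day 0, 41.2 and 56.8 CPM at day 2 and 165 and 168 CPM at day 10 in KO, and 173 and 242 CPM, 130.4 and 170.2 CPM and 113 and 93.4 CPM in WT, so the genotypes crossed between days 2 and 10. The nesprin gene 4831426I19Rik (now Syne3) was higher in KO at day 10 (log2 fold change 1.87, SE 0.40, FDR = 0.00722), and its relative Syne2 was not called (log2 fold change 0.88, SE 0.43, FDR = 0.159).

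Ablim1 had the lowest KO over WT value of the 109. This actin-binding LIM protein gene had 25.5 and 31.4 CPM at day 0, 3.41 and 5.04 CPM at day 2 and 3.75 and 3.69 CPM at day 10 in KO, and 14.4 and 19.9 CPM, 5.13 and 6.90 CPM and 32.6 and 30.4 CPM in WT, with 4.78 CPM in ESCs (log2 fold change -3.03, SE 0.23, FDR = 8.99e-05). Both genotypes were low at day 2, and WT alone was high again at day 10. Myof, a ferlin of membrane repair, was lower in KO at all 3 days, at -1.07, -1.27 and -1.01, all called. Ahnak, Emp2, Coro2b and Reep1 were not called at day 10, from -0.30 to 0.97.

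Receptors and signalling proteins numbered 13, with 4 higher and 2 lower. The phospholipase C gene Plce1 had 152 and 154 CPM in KO and 45.8 and 39.8 CPM in WT at day 10 (log2 fold change 1.88, SE 0.17, FDR = 0.000138). Apcdd1, a Wnt inhibitor, had 122 and 134 CPM in KO and 51.9 and 44.1 CPM in WT (log2 fold change 1.46, SE 0.26, FDR = 0.00290). Psd3 and Rell1 were the other higher genes. The phosphoinositide phosphatase gene Mtm1 had 27.8 and 30.3 CPM in KO and 78.7 and 85.3 CPM in WT (log2 fold change -1.45, SE 0.17, FDR = 0.000475). Plekhh1 resembled Ablim1, with 30.0 and 26.8 CPM in KO and 148 and 154 CPM in WT (log2 fold change -2.36, SE 0.29, FDR = 0.000568), against 16.1 and 27.1 CPM in KO and 20.1 and 30.4 CPM in WT at day 2. Kit had 178 and 171 CPM in KO and 237 and 237 CPM in WT (log2 fold change -0.39, SE 0.67, FDR = 0.721). Cbl, Cxcr7 (now Ackr3), Gpr126 (now Adgrg6), Odz4 (now Tenm4), Plekha6 and Plekhb2 were not called.

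The 5 members of the complement class included C1ra, C1s (now C1s1) and C1rl, proteases of the classical pathway and a relative, and the regulator Cd55. C1rl, C1ra and C1s are neighbours on chromosome 6. Of the 5, 0 were called at day 10 by edgeR (1 higher and 0 lower at unadjusted p under 0.05, and the same numbers by DESeq2). C1rl had a log2 fold change of 0.64 and Cd55 of -0.62. C1ra had 81.8 and 96.6 CPM in KO and 77.1 and 54.9 CPM in WT, against 0.448 CPM in ESCs. Some other complement genes were low: C1qa, a chain of the recognition protein, was at most 0.0498 CPM in any library and C3, the central component, at most 1.87 CPM. The complement gene Cfb had 0.687 and 0.848 CPM in KO and 5.95 and 5.18 CPM in WT at day 10, and 0.946 CPM in ESCs.

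Innate immune and interferon-inducible genes numbered 7, with 1 higher and 2 lower. The antiviral zinc finger gene Zc3hav1 had 32.1 and 34 CPM in KO and 99.8 and 99.6 CPM in WT at day 10 (log2 fold change -1.55, SE 0.16, FDR = 0.000279), with 31.1 and 36.8 CPM in KO and 25.1 and 35.1 CPM in WT at day 0, so the KO values at day 10 lay close to those of day 0. Mndal, an interferon-inducible gene, had 6.12 and 6.41 CPM in KO and 15.8 and 11.1 CPM in WT (log2 fold change -1.05, SE 0.27, FDR = 0.0158), a call lost when either KO library or WT A of day 10 was omitted. The serpin gene Serpinb9b was higher in KO (log2 fold change 1.34, SE 0.44, FDR = 0.0441). Clec2g, a C-type lectin relative, had 35.4 and 36.5 CPM in KO and 39.1 and 32.2 CPM in WT (log2 fold change 0.06, SE 0.16, FDR = 0.827). Gsdmd, Il34 and Rnf125 were not called. Immune cell markers summed to 8.49 to 11.3 CPM in KO and 26.8 to 29.2 CPM in WT at day 10, and their part in these values was not tested.

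The last 9 members fit no class, and 5 were higher in KO at day 10 and 0 lower by edgeR (6 higher and 0 lower at unadjusted p under 0.05, and 5 higher and 0 lower by DESeq2). These were Ttc28, Fam53b, Itpripl2, Ccdc141 and Fam174b, at log2 fold changes of 2.47, 0.79, 0.93, 0.86 and 1.11. Ndrg1, a hypoxia- and differentiation-responsive gene, Sh3tc1, Rbm20 and Lrrn4cl were not called.

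**Figure D3:**
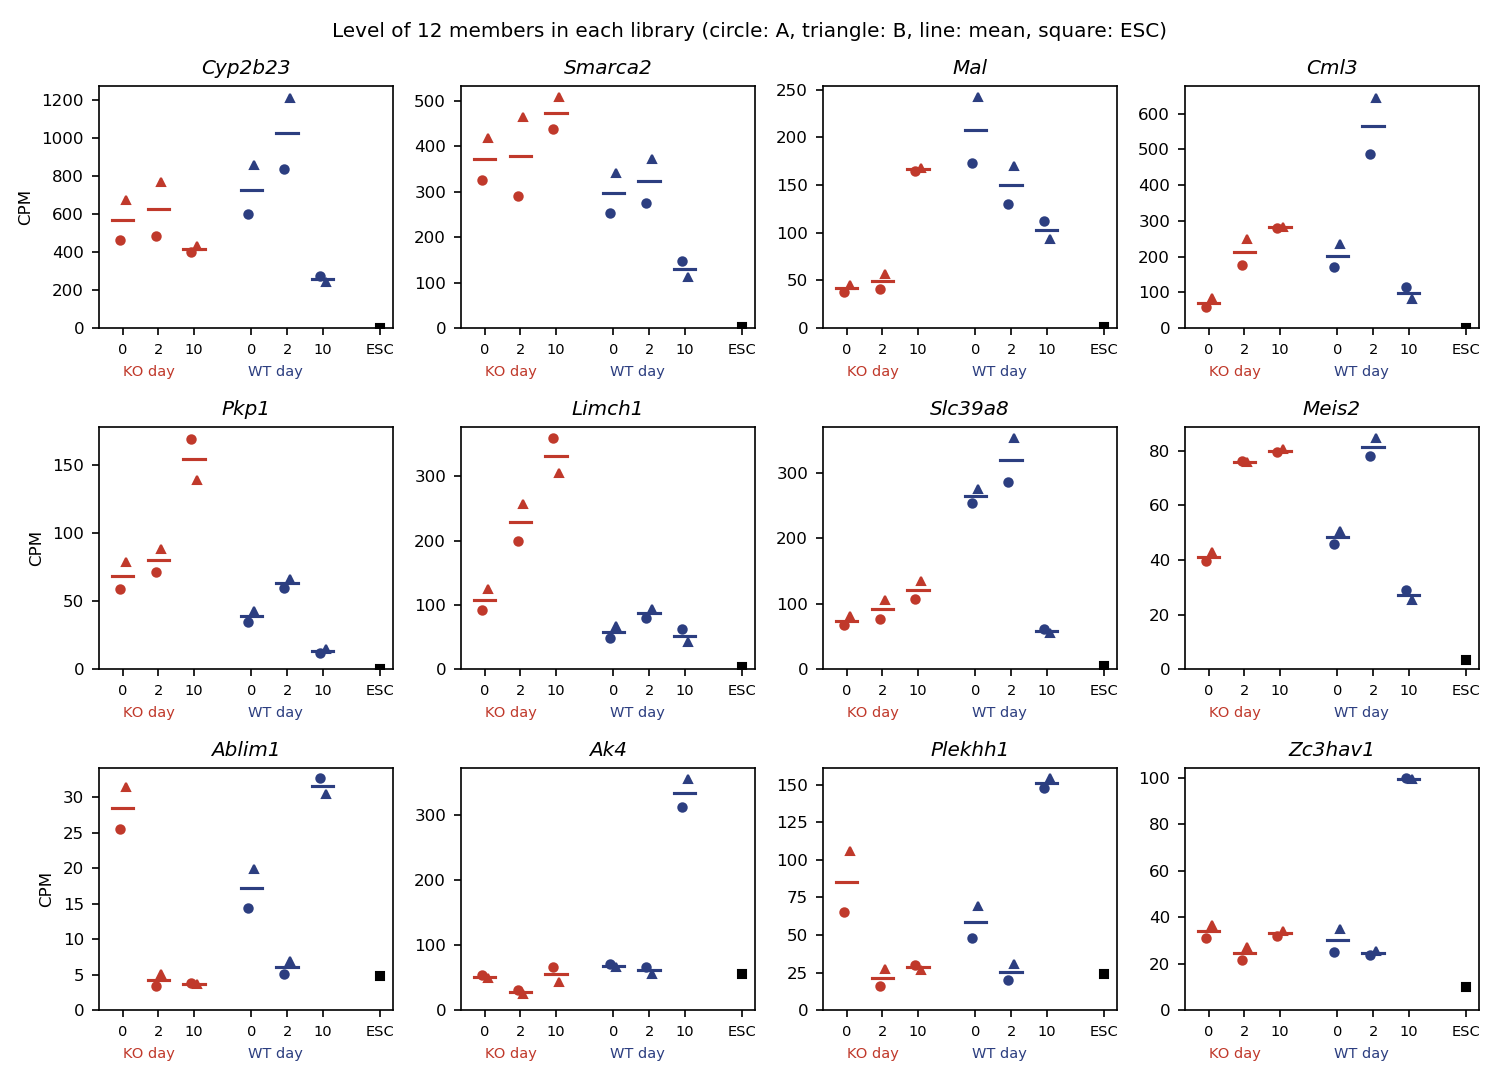
CPM (vertical axis, from 0) of 12 members in every library, with KO days 0, 2 and 10 at the left in red, WT days 0, 2 and 10 in blue and the ESC library as a black square; circles are letter A, triangles letter B and lines the mean of both. Pkp1, Limch1, Mal, Cml3, Slc39a8, Meis2 and Smarca2 sit higher in KO than in WT at day 10, and Ablim1, Ak4, Plekhh1 and Zc3hav1 lower.

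Day 2 gave the only comparison of the genotypes in libraries that the rule did not read. Here the members leaned the other way. KO was higher for 3 members and lower for 19 (2.75% and 17.4%), where 4.29% of all genes were higher and 6.16% lower, and the median log2 fold change was -0.16 over the members and 0.02 over all genes. Within the letters, KO was above WT in both for 28 members (30.9% of all genes) and below in both for 56 (42.3% of all genes), with medians of -0.37 in letter A and -0.15 in letter B. The number of calls, 22, became 13 when KO A of day 2 was omitted and 9 when WT B was.

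The 3 higher genes were 9030617O03Rik, Limch1 and Rell1, which were also higher at day 10. Limch1 had 199 and 257 CPM in KO and 79.8 and 93.9 CPM in WT at day 2 (log2 fold change 1.46, SE 0.24, FDR = 0.00503), a call lost when either WT library of day 2 was omitted. Rell1 had 269 and 409.7 CPM in KO and 166 and 191 CPM in WT (log2 fold change 0.99, SE 0.22, FDR = 0.0219), a call lost when KO B or either WT library of day 2 was omitted.

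Among the 19 lower genes, Sh3tc1 had the largest difference, with 8.25 and 11.1 CPM in KO and 69.3 and 89.8 CPM in WT (log2 fold change -2.97, SE 0.23, FDR = 0.000219). Mgll, a lipase of monoacylglycerols, had 1.77 and 3.16 CPM in KO and 10.6 and 11 CPM in WT (log2 fold change -2.08, SE 0.25, FDR = 0.00138). The coronin gene Coro2b had 13.6 and 19.6 CPM in KO and 55.1 and 70.7 CPM in WT (log2 fold change -1.86, SE 0.22, FDR = 0.00120). In these 3 genes all KO libraries were below all WT libraries. Slc39a8 (log2 fold change -1.74, SE 0.19, FDR = 0.000864), Mal (log2 fold change -1.55, SE 0.20, FDR = 0.00188) and Ndrg1 (log2 fold change -1.69, SE 0.29, FDR = 0.00630) were lower too. The 5 epithelial markers summed to 66.5 and 139.9 CPM in KO and 538 and 965 CPM in WT at day 2, and their part in these calls was not tested.

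Day 0 gave a similar list, as a description, since the rule set a floor for both groups. There 5 members were higher in KO and 13 lower, where 2.69% and 5.59% of all genes were called, and the median log2 fold change was 0.07. The number of calls, 18, became 10 when KO A of day 0 was omitted and 7 when WT B was. Mal (log2 fold change -2.26, SE 0.21, FDR = 0.000451), Sh3tc1 (log2 fold change -2.42, SE 0.23, FDR = 0.000514), Slc39a8 (log2 fold change -1.79, SE 0.19, FDR = 0.000859) and Klk1 (log2 fold change -2.99, SE 0.35, FDR = 0.00130) had the lowest FDR. The genotypes thus differed in these genes before AA+2i was added.

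Day by day, 7 members were lower in KO at day 2 and higher at day 10, 5 were lower at both and 3 were higher at both. A further 30 were called higher and 6 lower at day 10 alone, 7 were called lower at day 2 alone, and 51 at neither day. These numbers depend on the letters: with letters A and B as a term for days 0 and 2, 71 members were higher and 25 lower at day 10 (30.3% and 33.5% of all genes), 24 were higher and 44 lower at day 2 (18.8% and 17.8% of all genes), and 7 were called at neither day. Members described as not called are so in the fit without that term. The contrasts share no libraries, but a call at one day and none at the other does not show that the days differ.

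The change in KO between days 2 and 10, in libraries that the rule did not read, depended on how the letters were treated. Members called higher at day 10 than at day 2 numbered 11 and lower 0 (4 lower at unadjusted p under 0.05, and 3 lower by DESeq2), where 2.49% and 0.607% of all genes were called. Omitting KO A or KO B of day 2 left 4 calls, omitting KO A of day 10 left 3 and omitting KO B of day 10 left 4. With the letters as a term for days 0 and 2, 60 members were higher and 6 lower (17.7% and 16.5% of all genes). With letter A alone at days 0 and 2, 61 members were higher and 4 lower (13.2% and 9.29% of all genes), and with letter B alone 25 were higher and 42 lower (23.2% and 22.5% of all genes). The median member was 0.77 log2 units higher in B than in A at KO day 2, so no direction is read from these counts.

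Mal, Mgll and Sh3tc1 led this list. Mal had 165 and 168 CPM in KO at day 10 and 41.2 and 56.8 CPM at day 2 (log2 fold change 1.72, SE 0.20, FDR = 0.00457), Mgll 10.4 and 12.9 CPM at day 10 and 1.77 and 3.16 CPM at day 2 (log2 fold change 2.21, SE 0.25, FDR = 0.00457), and Sh3tc1 40.4 and 35.2 CPM at day 10 and 8.25 and 11.1 CPM at day 2 (log2 fold change 1.93, SE 0.23, FDR = 0.00457). These 3 genes were among those lower in KO at day 2, and at day 10 neither Mgll (-0.52) nor Sh3tc1 (-0.44) was called against WT. Coro2b, Fam53b, Ndrg1, Aff1, Zbtb7c, Myof, Pkp1 and Mbp were the other 8, at log2 fold changes of 0.83 to 1.72. The calls of these 8 were each lost on leaving out at least 1 library of the 4, and those of Mal, Mgll and Sh3tc1 held in all 4 such fits.

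Against its own day 0, KO at day 10 had 19 members higher and 14 lower, where 9.93% and 5.19% of all genes were called, and the median was -0.08 over the members. The reset genes had a median of -0.79 in the same contrast. The number of calls, 33, became 14 when KO A of day 10 was omitted and 17 when KO B was. Aff1, a gene of the super elongation complex family, rose in KO (log2 fold change 2.83, SE 0.25, FDR = 0.000194), as did Mal (log2 fold change 1.94, SE 0.20, FDR = 0.000450), Mbp and Cml3. Ablim1 fell (log2 fold change -2.99, SE 0.23, FDR = 0.000111), as did Slc38a5 (log2 fold change -3.45, SE 0.44, FDR = 0.00135).

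By day 2 fewer members were called. At day 2 against day 0, 7 members were higher and 10 lower in KO, where 4.02% and 2.37% of all genes were called, and 4 were higher and 7 lower in WT, where 3.32% and 1.98% were called. The 17 KO calls became 10 when KO A or KO B of day 0 was omitted and 8 when KO B of day 2 was, and the 11 WT calls became 4 when WT A of day 2 was omitted and 3 when any other of the 4 libraries was. Aff1, Cml3, LOC100504710 and Meis2 rose, and Ehf, Ablim1, Il34, Slc38a5 and Plekhh1 fell, in both genotypes. Il34, a ligand of the receptor Csf1r, had 40.7 and 46.5 CPM at day 0, 8.25 and 9.87 CPM at day 2 and 6.94 and 15.7 CPM at day 10 in KO, and 33.6 and 37.2 CPM, 8.13 and 13.5 CPM and 12 and 12.8 CPM in WT. The day 2 floor was not in the rule, and 104 members were still at 10 CPM or more in all 4 day 2 libraries.

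The interaction of genotype and day tests whether the change between days 0 and 10 differed. KO changed upward relative to WT for 26 members and downward for 5, where 6.35% and 6.2% of all genes were called; the rule read 3 of the 4 groups. The median interaction was 0.78 over the members and 1.23 over the reset genes. The 31 calls became 20 when KO A or WT B of day 0 was omitted, 19 when KO A of day 10 was, and 18 when KO B or WT B of day 10 was.

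Some of the 26 had a positive change in KO and a negative one in WT, where the WT change is a description, since the rule read both of its groups. Slc39a8 changed by 0.65 in KO and -2.24 in WT (interaction 2.89, SE 0.27, FDR = 0.000540), and Abp1 by 1.39 in KO and -2.04 in WT (interaction 3.43, FDR = 0.00145). Cml3, Mal, Pkp1, Meis2, Mbp and Plce1 had the same pair of signs. The 5 in the other direction were Ablim1, Plekhh1, Zc3hav1, Ak4 and Pla1a. Ablim1 changed by -2.99 in KO and 0.83 in WT, and Ak4 by 0.02 in KO and 2.22 in WT.

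**Figure D4:**
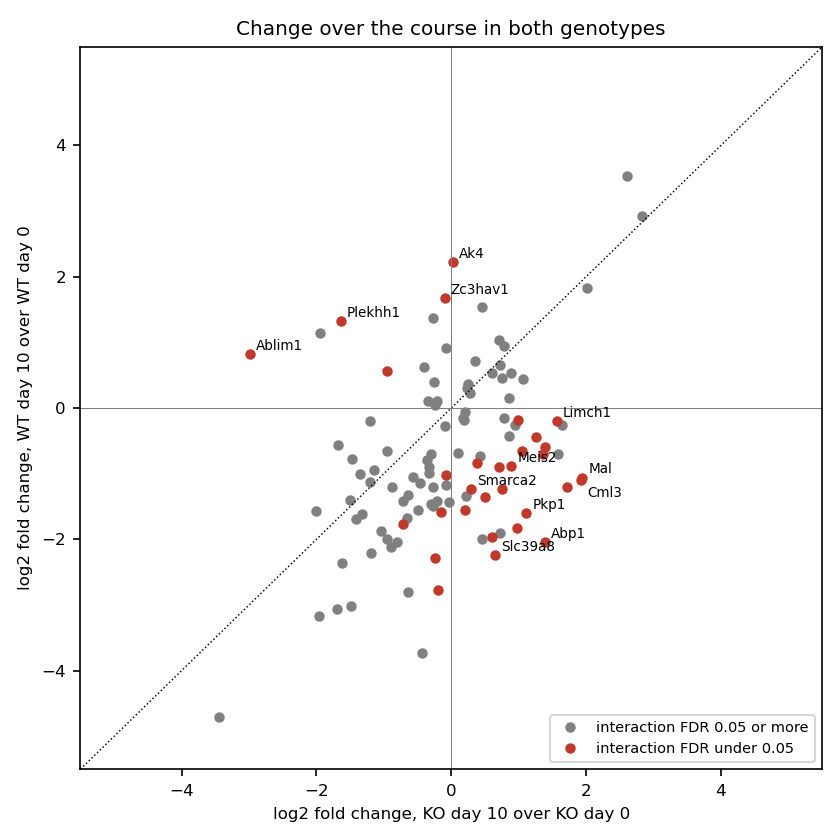
Log2 fold change at day 10 over day 0 in KO (horizontal axis) and in WT (vertical axis) for each member, with members called in the interaction in red and the dotted line where both changes are equal. Most red points lie below the line, as for Slc39a8, Abp1, Pkp1, Mal and Cml3, and 5 above it, of which Ablim1, Plekhh1, Ak4 and Zc3hav1 are labelled.

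Pathway lists placed few of the members. The 18 lists used held 474 entries, and the members among them were Lama4 (matrix), Htra1 (matrix remodelling), Itgb4 and Cd44 (adhesion receptors), Meis2 (neural factors), Nfix (mesenchymal factors), Peg3 (imprinted genes), Myc (growth drivers), and Pkp1 and Ly6a (epithelial genes). The actin, annexin and S100, IGF, TGF-beta and YAP, AP-1, NRF2 and xenobiotic, lysosome, cell cycle inhibitor, interferon and naive pluripotency lists held 0 members. Of these, the actin, IGF, lysosome and interferon lists had 0 genes at 10 CPM and 5 times ESCs in all day 0 libraries. The rest of them had 1 to 3 such genes, where 33.5% of all such genes were members. The 0 members therefore do not show that these functions were reset. In the mesenchymal list, Zeb1, Msx1, Nfia and Nfib passed 5 times ESCs at day 0 and missed a limit of the rule in WT at day 10. Nfix was the 1 of 5 that met the limits, at a level just above the minimum of 10 CPM. How near the others came is not reported here, so no contrast in resetting is read from this. In the neural list Meis2 met the limits and Meis1 did not.

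Over whole lists, KO against WT at day 10 went in either direction, and only some of the 18 lists are given. The NRF2 and xenobiotic, interferon, naive pluripotency and AP-1 lists held 0 members, so they have no member direction beside them. Of 20 AP-1 genes 5 were higher in KO and 1 lower (median 0.55). Of 26 mesenchymal factors tested, 11 were higher in KO and 6 lower (median 0.22). Of 25 epithelial genes 3 were higher and 16 lower (median -1.77), the opposite of Pkp1. Of 22 imprinted genes 2 were higher and 10 lower (median -1.12), and Peg3 was not among those called. Of 25 NRF2 and xenobiotic genes 6 were higher and 7 lower, of 40 matrix genes 3 were higher and 15 lower, of 27 interferon genes 2 were higher and 13 lower, and 14 of 18 naive pluripotency genes were lower. The lists were described by these counts beside the 12.4% and 19.9% of all genes given above.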

How the data were processed

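Total RNA of 13 libraries was sequenced from single-end libraries made with a TruSeq kit, per the labels' protocols. Per the submitters' processing notes, Bowtie2, RSEM and the mm9 build were used, with versions not given in the sources used here. The authors deposited RSEM expected counts, which divide a read that matches several transcripts, and TPM per gene, per the file headers. In each library 35.0 to 43.8% of the expected counts were more than 0.005 from a whole number. TPM was used for 1 ranking of levels between genes.

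CPM was computed from the expected counts and their column sums. Rounded expected counts of the 12 pre-iPSC libraries entered 1 fit of 6 groups, tested by quasi-likelihood with edgeR 4.0.16 (R 4.3.3; filterByExpr, TMM factors of 0.922 to 1.06, 14324 genes, 6 residual degrees of freedom, common biological coefficient of variation 0.266). Genes with a Benjamini-Hochberg FDR under 0.05 over all genes tested were called, with no fold threshold. All 109 members passed the filter. The ESC library has no replicate and entered no fit. The fit was also run on simulated counts. These held no shared difference between letters A and B, so that run does not cover such a difference. DESeq2 1.42.0, other scalings, no filter, a replicate block and leaving out each library were alternatives.

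The members and lists were chosen with earlier results of these data known, and the functional classes were assigned after the values were seen. The text names the 10 members highest over ESCs, the 5 highest at WT day 10, up to 8 per direction with the lowest FDR in KO against WT at days 2 and 10 and in KO day 10 against day 2, up to 12 of the interaction, the 3 nearest each side of the threshold and list members. Other members are named by class, and 3 are not reported here by name. RefSeq held a promoter window for 83 members (76.1%), under the 80% needed, so a comparison of promoter composition is void and not given. Current symbols come from the same RefSeq table.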

Additional observations from a re-analysis of the deposited data

Results flagged for a closer look

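The change between days 0 and 10 differed between KO and WT for 26 members in the upward direction and 5 in the downward direction, by the interaction term of edgeR's fit (FDR under 0.05), where 6.35% and 6.2% of all genes were called. The rule that chose the members read 3 of the 4 groups in this term. The 12 with the lowest FDR follow as KO change minus WT change on the log2 scale. The value was positive for Abp1 (3.43), Cml3 (3.02), Mal (3), LOC100504710 (2.92), Slc39a8 (2.89), Pkp1 (2.71), Mbp (2.07), Plce1 (1.98) and Meis2 (1.78). It was negative for Ablim1 (-3.82), Plekhh1 (-2.96) and Zc3hav1 (-1.78). Day 0 values of Mal, Slc39a8, Abp1, Cml3 and LOC100504710 were already lower in KO than in WT, so their interaction joins a lower start to a higher end. The day 0 libraries carry the length-linked difference between letters A and B, and its part in these values was not tested.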

How the results depend on the processing

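The rule gave 301 members at 3 times ESCs and 48 at 10 times, 99 with TMM-scaled CPM (98 of the 109), 144 and 79 at a minimum of 5 and 20 CPM, 126 with a pseudocount of 0.1 CPM, and 109 to 150 without 1 library. Leaving out 1 library gave 9 to 19 called members in KO against WT at day 2, 24 to 31 at day 10 and 7 to 13 at day 0, 3 to 4 in KO day 10 against day 2, 14 to 22 in KO day 10 against day 0, 8 to 13 in KO day 2 against day 0, 3 to 4 in WT day 2 against day 0, 31 to 52 in WT day 10 against day 0 and 18 to 25 in the interaction. The lone library left is assumed to vary like the other groups.

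When letters A and B entered as a term (replicate block), the count was 21 in KO day 10 against day 2, 28 in KO day 2 against day 0, 22 in WT day 2 against day 0 and 49 in the interaction, against 11, 17, 11 and 31 without that term. Only letters are shared, and same-letter deviations correlated at 0.905 to 0.947 among groups of days 0 and 2 and at -0.221 to -0.00719 where a day 10 group was in the pair. With the replicate block for days 0 and 2 only, the counts were 68, 96 and 60 in KO against WT at days 2, 10 and 0, 66, 81 and 64 in the KO courses (day 10 against 2, day 10 against 0, day 2 against 0), 67 in WT day 2 against day 0 and 78 in the interaction, against 22, 51, 18, 11, 33, 17, 11 and 31 as reported. DESeq2 gave 21 in KO day 10 against day 2, 34 in KO day 2 against day 0 and 23 in WT day 2 against day 0. With letter A only at days 0 and 2, chosen after seeing the data, the same comparisons in the same order gave 58, 100, 43, 65, 75, 47, 42 and 76. Letter B only gave 54, 99, 49, 67, 82, 49, 38 and 73. The cause of these shifts in count was not tested. Calls over all genes also rose with the block for days 0 and 2 only. In KO against WT they reached 18.8% higher and 17.8% lower at day 2, and 30.3% and 33.5% at day 10. Without it they were 4.29% and 6.16% at day 2, and 12.4% and 19.9% at day 10. For letter A or B only, shares of all genes are given above for KO day 10 against day 2 alone. The counts in this paragraph are therefore not read as results about the members.

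A check gene by gene under the alternatives covered 47 results of named members, taken for the lowest FDR in their comparison. Of their 565 values, 540 kept direction and call, 25 lost the call and 0 reversed, and all 25 were leave-one-out fits. Other called members, also where named in the text, were not in this check, so these numbers do not extend to them. For all members, the leave-one-out counts of calls are given above. Precision is limited by 2 libraries per group and by the single ESC library in the rule.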
